A study of Danio rerio with 10 samples.

Results

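The strictly zygotic genes of the zebrafish sphere stage are those whose transcripts were near zero in the egg and cleaving embryo and abundant in the late blastula. They were chosen from measured values: below 1 RPKM (reads per kilobase of gene, corrected for the depth of the library) in each of 7 libraries, the oocyte and the 1-, 4-, 16-, 64-, 128- and 256-cell embryo, and 10 RPKM or more at sphere. A total of 187 of the 32574 genes met both limits. Leaving out 31 by name, among them 12 zinc finger genes with a znf symbol, gave 156 genes, of which 74 carried a symbol and 82 had an Ensembl identifier only. The names left out were klf17, irx7, nnr, mxtx2, vgll4l, asb11, akap12b, sox19a, sox3, tbx16, noto and chrd, and symbols that begin with krt, cldn, her, ndr, lft, bmp, znf or zbtb.

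RNA was sequenced from Danio rerio sperm, oocytes and embryos at 8 stages, with 1 library for each of these 10 groups. The labels name no strain, treatment, mutation or age other than the stage, and do not say how many eggs, embryos or males were pooled. With 1 library per stage there was no replicate spread and no test. Intervals below are exact 95% intervals on recovered reads and cover counting error only.

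A fish embryo starts on messenger RNA that the mother laid down in the egg, and its own genome is largely silent during the fast cleavage divisions. The genome is activated on a large scale around the midblastula transition, near the 1000-cell stage. By sphere the blastula holds an outer enveloping layer, a yolk syncytial layer beneath and deep cells between them, and transcription factors and signals that set up the axes and germ layers are being made. RNA with a short or absent poly(A) tail is captured poorly by kits of the kind used here. A low early value therefore cannot be told apart from RNA present without a tail, and in whole embryos fewer cells of a type cannot be told apart from less RNA per cell.

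The libraries had been scaled to between 37762530 reads (1-cell) and 113972795 reads (4-cell), so that 3 reads in a gene of 1000 bases amounted to 0.0495 RPKM at 256-cell, 0.0422 RPKM at 1000-cell and 0.0374 RPKM at sphere. The sphere label was checked against marker genes. None of 3 later blood, 4 nerve or 9 gastrula and somite marker rows reached 1 RPKM at sphere. Of 6 muscle rows 1 did, at 1.72 RPKM, while 4 of 5 enveloping layer and 3 of 3 yolk syncytial layer markers did. For the enveloping layer 2 of 5 markers had done so at 256-cell and 3 of 5 at 1000-cell. Its krt markers were also present in the oocyte, krt4 at 39.5, krt8 at 37.5 and krt5 at 116 RPKM. At sphere these krt genes stood at 61.5, 53.4 and 12.3 RPKM, so their presence was not particular to sphere. For the yolk syncytial layer 0 of 3 had done so at 256-cell and 1 of 3 at 1000-cell. All 4 egg markers were still present, at a summed 160 RPKM at sphere and 378 RPKM at 1000-cell. These markers include krt genes and mxtx2, which the choice of genes left out, and grhl3 and mxtx1, which belong to it. Members were at 10 RPKM or more at sphere by choice, and mxtx2, at 62.6 RPKM, met the same limits. The levels of grhl3, mxtx1 and mxtx2 are therefore no independent check of the label.

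The 156 genes ranged between 10.1 and 212 RPKM at sphere, with a median of 20.1 RPKM (quartiles 12.8 and 43.3). At the 1000-cell stage, a level the choice did not use, their median was 0.242 RPKM (quartiles 0.102 and 0.685) and their highest value 6.42 RPKM. Before that their median was 0.0259 RPKM in the oocyte, 0 in the 1-cell, 0.00572 in the 4-cell, 0.0175 in the 16-cell, 0.0117 in the 64-cell, 0.0171 in the 128-cell and 0.0251 in the 256-cell. Summed over the set, their RPKM made up 0.00386% of the 256-cell library total, 0.0252% of the 1000-cell total and 1.35% of the sphere total. At sphere 79 stood at 20 RPKM or more, 31 at 50 or more and 10 at 100 or more, and the 10 highest held 26.3% of the set's summed 5350 RPKM. The 31 genes left out by name summed to 1942 RPKM.

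**Figure D1:**
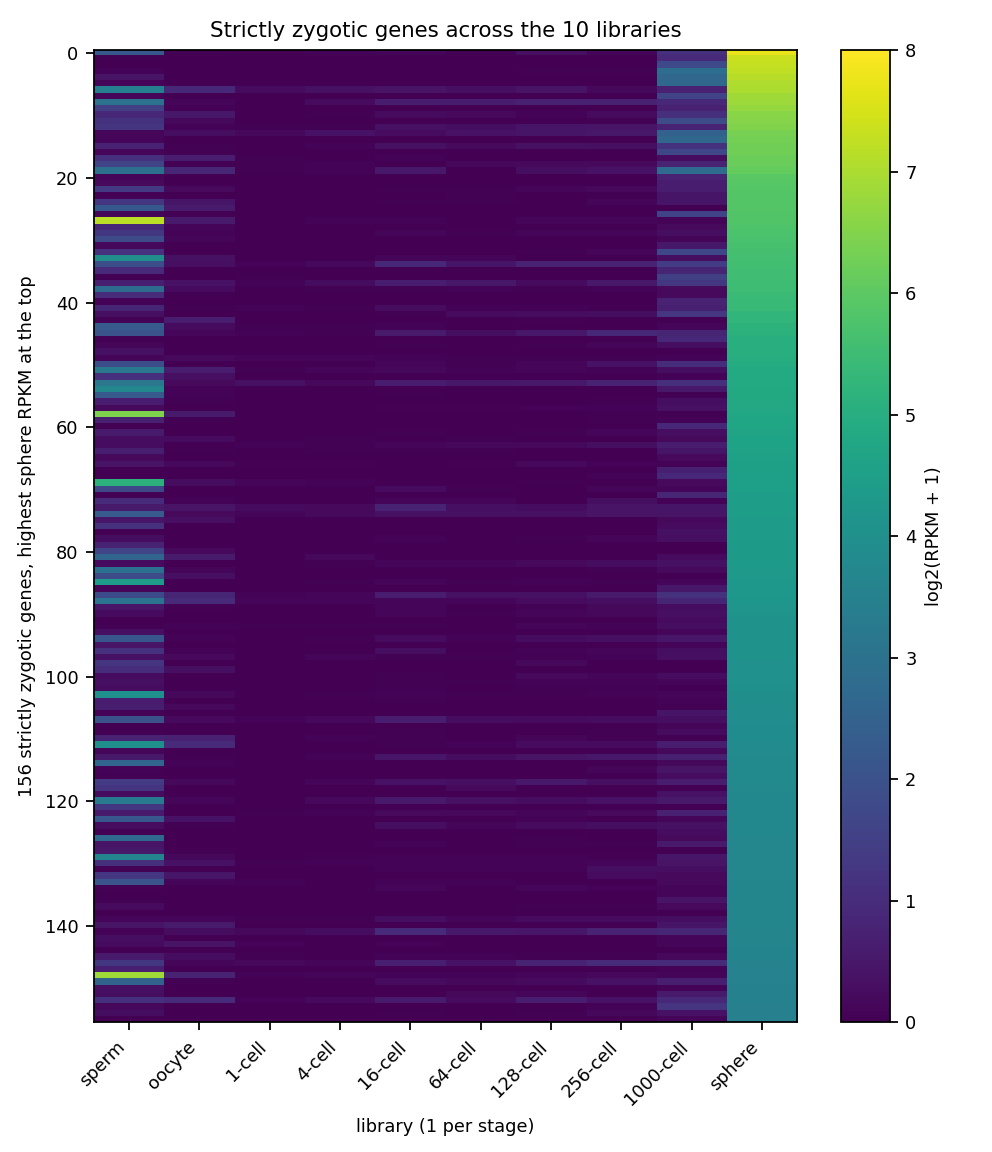
Levels of the 156 strictly zygotic genes in the 10 libraries, as log2(RPKM + 1), with 1 row per gene ordered by sphere level and 1 column per library. The columns from oocyte to 256-cell are near 0 by choice, the 1000-cell column is faintly lit mainly in the upper rows, and sperm carries scattered high values that bear little relation to the sphere order.

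Genes of this kind were a small share of the blastula's abundant transcripts. Of the 6756 genes at 10 RPKM or more in sphere, 2.77% had been below 1 RPKM in all 7 earlier libraries. In the other direction, 18860 genes were below 1 RPKM in those libraries. Of these, 1192 (6.32%) reached 1 RPKM at sphere and 187 (0.992%) reached 10 RPKM.

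Transcription factors made up 14 of the 46 genes given a role here, a share not computed over all genes. Roles were picked after the values were seen, and further factors were left out by name. The share is thus no measure of what the set is made of. Sphere levels of the 14 ran from 10.2 to 94.1 RPKM with a median of 15.3, and 3 of the 14 reached 1 RPKM at the 1000-cell stage. The highest was grhl3 (ENSDARG00000078552), a grainyhead factor of surface epithelia and of the enveloping layer. It stood at 0.436 RPKM in the oocyte, 0.00877 in the 1-cell, 0.0320 in the 4-cell, 0.171 in the 16-cell, 0.115 in the 64-cell, 0.0671 in the 128-cell, 0.164 in the 256-cell, 1.11 in the 1000-cell and 94.1 at sphere, and at 0.870 RPKM in sperm. Only the sphere library was high, at 84.5-fold (74.4 to 96.4) the 1000-cell value. The 1000-cell value was in turn 6.80-fold (4.64 to 10.3) that of the 256-cell library.

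Both drll.3 and drll.1, zinc finger genes related to draculin, belonged to the set. For drll.3 (ENSDARG00000095635) the levels were 0.0419 RPKM in the oocyte, 0.0101 in the 1-cell, 0.0519 in the 4-cell, 0.280 in the 16-cell, 0.143 in the 64-cell, 0.279 in the 128-cell, 0.258 in the 256-cell, 1.24 in the 1000-cell and 76.4 at sphere, and 0.670 RPKM in sperm. Its neighbour drll.1 reached 16.4 RPKM at sphere and 0.240 at 1000-cell. In the RefSeq order of the GRCz12tu assembly these genes enclose drll.2 and drl, and lrwd1, a further member, lies 4 genes from drll.3. The enclosed genes were also low before and stood lower at sphere. The gene drl was at 7.62 RPKM at sphere and 0.159 at 1000-cell, and drll.2 at 1.34 and 0.00695 RPKM in those libraries. The family members resemble each other in sequence, so the division of reads between them is uncertain.

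Regulators of dorsal and mesendodermal fate were among the lower members. The homeobox gene dharma (ENSDARG00000040955), which maternal beta-catenin switches on in the dorsal organizer, had the highest 1000-cell level relative to sphere of all 156 genes. It was listed at 0 in the oocyte, 1-cell, 16-cell and 64-cell libraries, at 0.0115 RPKM in the 4-cell, 0.0140 in the 128-cell and 0.0648 in the 256-cell, and then at 1.29 RPKM in the 1000-cell and 10.2 at sphere, while sperm had 0.132 RPKM. Its sphere level was 7.92-fold (6.18 to 10.3) the 1000-cell level, and the 1000-cell level 19.9-fold (6.54 to 98.9) the 256-cell level, the last on 70 and 3 reads. GSC (goosecoid), a homeobox gene of the organizer, stood at 12.4 RPKM at sphere and 0.450 RPKM at 1000-cell, with up to 0.455 RPKM before. The forkhead gene foxd5 stood at 12.4 RPKM at sphere and 0.318 at 1000-cell, and it was listed at 0 in every earlier library but the 64-cell. In contrast foxa3, a forkhead factor of endoderm and the axial midline, stood at 12.04 RPKM at sphere with 2 reads in the 1000-cell library. The yolk syncytial homeobox gene mxtx1 was at 11.3 RPKM at sphere with 1 read at 1000-cell and none in the 7 earlier libraries. These regulators thus differed in how much RNA was present at the 1000-cell stage, over a span from 0.0669% of the sphere level in mxtx1 to 12.6% in dharma.

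Factors of ventral ectoderm and of later neural and blood lineages formed a further group. GATA3 stood at 28.0 RPKM at sphere and 0.439 RPKM at 1000-cell, and GATA2 at 14.1 and 0.227 RPKM. TFAP2A, an activator of epidermal and neural crest genes, stood at 20.8 RPKM at sphere and 0.365 at 1000-cell, and it had reached 0.752 RPKM at 16-cell. SOX11 (ENSDARG00000077811), a factor of neural progenitors, stood at 23.8 and 0.525 RPKM in those libraries, and klf2b, a Krüppel-like factor of epidermis and endothelium, at 10.3 and 0.889 RPKM. The growth regulator MYCN stood at 20.7 RPKM at sphere and 0.337 at 1000-cell. The 1000-cell level was 27.0-fold (8.98 to 133) the 256-cell level for GATA3, 2.79-fold (2.13 to 3.70) for klf2b and 2.23-fold (1.58 to 3.20) for SOX11. For TFAP2A, GATA2 and MYCN this ratio was 1.08, 1.17 and 0.98, and each interval included 1.

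Ligands numbered 6 and receptors 3. The apelin receptor gene aplnrb (ENSDARG00000036670) and its peptide ligand apela, known as Toddler or Elabela, which steer the movement of mesendodermal cells, were both members. The receptor aplnrb stood at 0.0133 RPKM or less in each of the 7 libraries up to 256-cell, at 0.791 RPKM at 1000-cell and at 46.2 RPKM at sphere. Its 117 reads at 1000-cell compare with 1 read at 256-cell. The ligand apela stood at 35.0 RPKM at sphere, 0.114 RPKM at 1000-cell on 7 reads, and was listed at 0 at 128-cell and 256-cell after 0.169 RPKM in the oocyte. Sphere over 1000-cell ratios were 58.4 (48.6 to 70.7) for aplnrb and 308 (149 to 768) for apela. These intervals do not overlap, but they cover counting error only. Among members with a 1000-cell read the ratio ran from 7.92 (dharma) to 6722 (stm), so such a difference is not particular to this pair.

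Of the other ligands, wnt11f2 (ENSDARG00000004256), a noncanonical Wnt of gastrulation movements, was the only ligand at 1 RPKM or more at 1000-cell. It stood at 0.00858 RPKM in the oocyte, 0.0124 in the 1-cell, 0.0123 in the 4-cell, 0.111 in the 16-cell, 0.0390 in the 64-cell, 0.0951 in the 128-cell, 0.302 in the 256-cell, 1.08 in the 1000-cell and 29.8 at sphere, and at 2.76 RPKM in sperm. The BMP-like ligand admp stood at 14.7 RPKM at sphere and 0.0606 RPKM at 1000-cell, and was listed at 0 from 64-cell to 256-cell. The insulin-like growth factor igf2a stood at 10.7 and 0.593 RPKM at sphere and 1000-cell, the ephrin EFNA1 (ENSDARG00000018787) at 12.8 and 0.530, and the semaphorin SEMA6D at 12.2 and 0.290. Among receptors, fgfr4, which binds fibroblast growth factors, stood at 25.5 RPKM at sphere and 0.0562 at 1000-cell, a ratio of 454 (294 to 744). FZD8 (ENSDARG00000045444), a Frizzled receptor for Wnt ligands, stood at 12.1 and 0.477 RPKM, a ratio of 25.3 (20.4 to 31.6).

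Genes of matrix and adhesion numbered 4. HAS2, which makes hyaluronan, stood at 31.0 RPKM at sphere and 0.0519 RPKM at 1000-cell, a ratio of 597 (373 to 1026), and between 0.0331 and 0.143 RPKM before. The gene stm (starmaker), whose product is known from the otolith matrix, stood at 56.6 RPKM at sphere on 15175 reads and had 2 reads at 1000-cell. It was listed at 0 from 1-cell to 256-cell but at 0.498 RPKM in the oocyte. The protocadherin PCDH1 (ENSDARG00000036175) stood higher at 1000-cell, with up to 0.743 RPKM in the 7 early libraries, 1.14 at 1000-cell and 28.6 at sphere.

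Signalling and cell shape regulators numbered 12. GADD45B (ENSDARG00000013576), a stress and growth arrest gene, had the highest 1000-cell level of any member with a symbol. It stood at 0.801 RPKM in the oocyte, 0.0357 in the 1-cell, 0.0532 in the 4-cell, 0.433 in the 16-cell, 0.00934 in the 64-cell, 0.223 in the 128-cell, 0.300 in the 256-cell, 5.91 in the 1000-cell and 67.6 at sphere, and at 6.67 RPKM in sperm. Its 1000-cell level was 19.7-fold (13.4 to 30.2) the 256-cell level and its sphere level 11.4-fold (10.5 to 12.4) the 1000-cell level. IER5L, of the immediate early response family, stood at 18.3 RPKM at sphere and 1.20 at 1000-cell. The actin regulator inka1a stood at 106 RPKM at sphere and 0.675 at 1000-cell, with 2 reads at 256-cell. NET1 stood at 28.9 and 0.225 RPKM at sphere and 1000-cell, and PRICKLE1 (ENSDARG00000045694), of the planar cell polarity pathway, at 28.6 and 0.0478 RPKM. The Dapper family gene dact2, which tempers Wnt and Nodal signals, stood at 13.3 and 0.624 RPKM.

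Among 4 genes of replication, RNA polymerase and chromatin, lrwd1, a partner of the origin recognition complex, stood highest at 112 RPKM at sphere. Its levels before were 0.668 RPKM at 128-cell, 0.671 at 256-cell and 0.871 in the 1000-cell library. The 1000-cell level of lrwd1 was 1.30-fold (1.02 to 1.66) the 256-cell level. The lower end of that interval is close to 1, and the interval does not cover how the libraries were scaled. The RNA polymerase III subunit gene polr3gla stood at 44.3 RPKM at sphere and 0.158 at 1000-cell, and morc3b, of the MORC ATPase family, at 21.7 and 0.0843 RPKM.

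The 1000-cell library was the only embryo library that the choice of genes did not use. There 23 of the 156 genes (14.7%) reached 1 RPKM, against 134 of 18673 other genes below 1 RPKM in the 7 earlier libraries (0.718%), and 69 of the 1005 such genes at 1 to 10 RPKM at sphere (6.87%). The median member stood at 1.13% of its sphere level (quartiles 0.554 and 2.78, highest 12.6). The sphere level in this ratio was set by the choice, so it is a description. Sphere and 1000-cell levels had a Spearman correlation of 0.42 across the 156 genes, which share both libraries and, in each gene, its length.

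**Figure D2:**
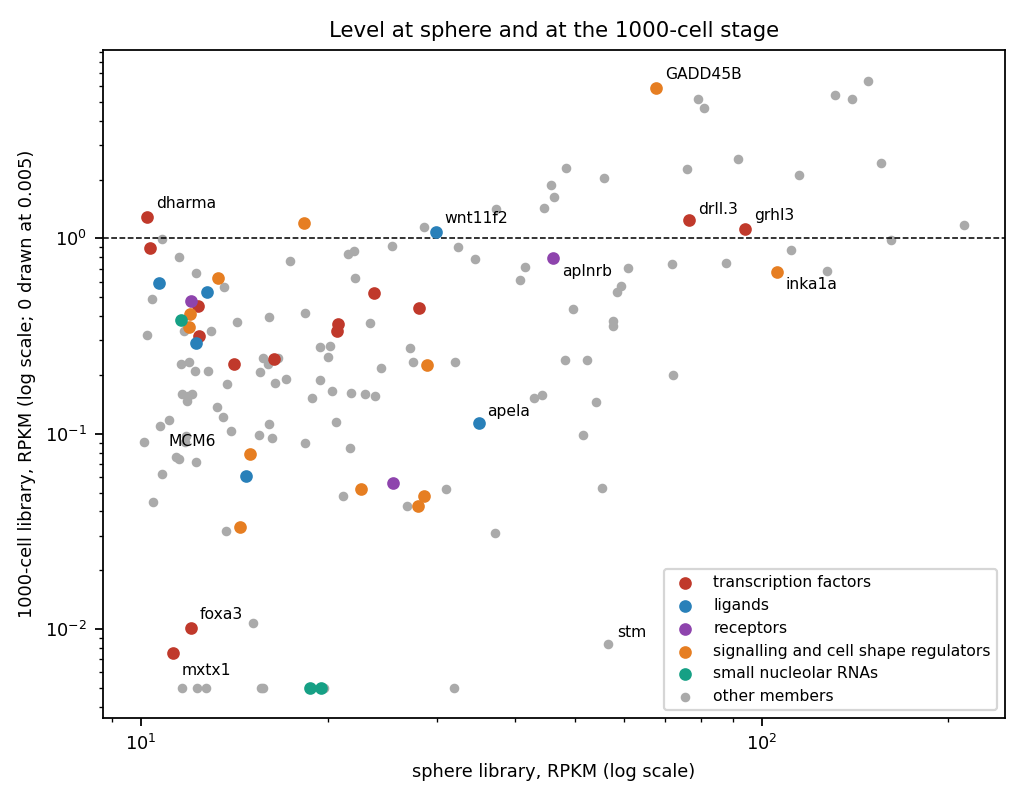
Level of each of the 156 genes at sphere (horizontal, RPKM, log scale) and at 1000-cell (vertical, RPKM, log scale, 0 drawn at 0.005), coloured by role, with the dashed line at 1 RPKM. GADD45B, dharma, wnt11f2, drll.3 and grhl3 lie above the line, while stm, foxa3 and mxtx1 lie near the bottom at 1 or 2 reads in the 1000-cell library.

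Calls used a difference of at least 2 in log2(RPKM + 1), 4-fold on that scale, among genes at 1 RPKM or more in either library. Between sphere and 1000-cell, 568 of 13983 genes measured were called higher (4.06%) and 58 lower (0.415%). All 156 members were called higher and none lower. They passed the filter through sphere, which was at 10 RPKM or more by choice. The 1000-cell level was not used in the choice, so the calls were not fixed by it. With sphere high by choice, the count is a description. Between 1000-cell and 256-cell, 17 of 12734 genes were called higher (0.134%) and 0 lower (0%). Only 23 members passed the filter on low values there, all through the 1000-cell library since the 256-cell level was below 1 RPKM by choice, so their direction was fixed and nothing is read from it. Of these, 5 were called higher and 0 lower. These were GADD45B and 4 genes with no symbol, ENSDARG00000091276, ENSDARG00000075796, ENSDARG00000092265 and ENSDARG00000093944. Among the remaining 12 called genes were 3 left out by name, irx7, klf17 and nnr.

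The 4 genes with no symbol stood among the highest of the set. ENSDARG00000091276 was at 0.0359 RPKM at 256-cell on 2 reads, 6.42 at 1000-cell and 148 at sphere. ENSDARG00000092265 stood at 140 and 5.18 RPKM at sphere and 1000-cell, and was listed at 0 in all 7 earlier libraries. ENSDARG00000075796 stood at 131 and 5.41 RPKM with 1 read at 256-cell, and ENSDARG00000093944 at 79.1 and 5.19 RPKM with no read there. Their 1000-cell levels were thus 3.71% to 6.57% of the sphere level. The highest member at sphere, ENSDARG00000095749 at 212 RPKM, stood at 1.17 RPKM at 1000-cell, 0.551% of its sphere level. Of the 82 genes with no symbol, 14 reached 1 RPKM at 1000-cell.

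Recovered reads let lower levels be compared. A read in the 1000-cell or 256-cell library was present for 147 members. Of these, 67 had reads in both and a 1000-cell over 256-cell ratio whose interval lay above 1. Intervals below 1 numbered 0, a direction not counted over all genes, so nothing is read from it. An interval above 1 held for 29.0% of 23661 genes of the whole table. It held for 9.62% of the 10017 genes with a read that were below 1 RPKM in the 7 earlier libraries. A further 39 members had 0 reads at 256-cell and more than 3 at 1000-cell, which held for 1.56% of 12766 genes of the low class. The 1000-cell value was above all 7 earlier values in 105 members (67.3%), against 25.6% of all genes above 0 and 23.9% of those in the low class. The 256-cell level was among the limits of the choice, so these counts are descriptions. Over genes at 1 RPKM or more in either library, the median 1000-cell minus 256-cell difference in log2(RPKM + 1) was 0.086. The intervals were not adjusted for this offset. In 9 members the 1000-cell value was listed at 0, and 7 of these were shorter than 130 bases.

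Traces in the 7 early libraries were low by choice, and 19 members were listed at 0 in all of them. The median of a gene's highest early value was 0.1196 RPKM. That highest value lay in the oocyte for 55 genes, in the 256-cell library for 35 and in the 16-cell library for 23. At 1-cell, the library scaled to the fewest reads, 103 members were listed at 0. Values close to the limits show how the boundary falls. At sphere, the members nearest the limit ran from 10.1 to 10.4 RPKM, dharma and klf2b among them, and the nearest genes outside it from 9.77 to 9.94 RPKM. For the early limit, klf2b (0.954 RPKM) and si:dkey-56m19.5 (0.962 RPKM, both in the oocyte) lay just inside. The cyclin-dependent kinase inhibitor cdkn1ca at 1.05 RPKM and the other GADD45B row, ENSDARG00000027744, at 1.06 RPKM lay just outside, and they stood at 21.8 and 19.1 RPKM at sphere. Nearest of all outside was ENSDARG00000091017, at 1.01 RPKM. It stood at 15.8 RPKM at 1000-cell and 228 at sphere, each above the highest member, so the set's highest values depend on this limit.

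Several members had a relative that was present earlier. Of 48 members with a symbol that could be compared, 24 had a gene row sharing the symbol stem, 13 a relative at 1 RPKM or more in an early library and 3 at 10 RPKM or more. The same counts were not made over all genes, so nothing is read from them. For MCM6, a subunit of the replicative DNA helicase, the member ENSDARG00000057683 stood at 0.688 RPKM in the oocyte, 0.0658 in the 1-cell, 0.0682 in the 4-cell, 0.0477 in the 16-cell, 0.0474 in the 64-cell, 0.109 in the 128-cell, 0.123 in the 256-cell, 0.109 in the 1000-cell and 10.7 at sphere. The other MCM6 row, ENSDARG00000033231, stood at 226 RPKM in the oocyte, 169 in the 1-cell, 216 in the 4-cell, 197 in the 16-cell, 167 in the 64-cell, 134 in the 128-cell, 128 in the 256-cell, 117 in the 1000-cell and 113 at sphere. The member thus made up 8.69% of the pair's RPKM at sphere, and the abundant row remained the larger. In frogs, separate maternal and zygotic forms of this subunit are known.

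The pair inka1a and inka1b showed the opposite balance at sphere. While inka1a was at 0.0543 RPKM or less before the 1000-cell stage, inka1b stood at 209 RPKM in the oocyte, 35.7 in the 1-cell, 15.1 in the 4-cell, 49.8 in the 16-cell, 9.73 in the 64-cell, 8.67 in the 128-cell, 10.7 in the 256-cell, 14.8 in the 1000-cell and 26.1 at sphere, where inka1a was at 106. GATA2 and gata2b formed the third pair: GATA2 stood at 14.1 RPKM at sphere and 0.151 in the oocyte, and gata2b at 1.57 RPKM at sphere and 12.5 in the oocyte. In the apelin receptor family, aplnrb at 46.2 RPKM at sphere stood beside aplnra at 3.26 RPKM and a further APLNR row at 3.82 RPKM. That APLNR row was present earlier, at 3.42 RPKM at 128-cell and 4.62 at 1000-cell, where aplnrb was at 0.791. By contrast aplnra was at 0.0127 RPKM or less in the early libraries and listed at 0 at 1000-cell. Where rows share a symbol or descend from a duplication, reads of similar stretches could have been divided between them, and how such reads were treated is not given in the sources used here.

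Genes of 12 lists by role, chosen with earlier results of these data known, were sorted by the same limits. Of all 32574 genes, 156 (0.479%) were members. In the list of mesendoderm factors 4 of 28 rows were members (dharma, foxa3, foxd5 and GSC), and 5 more were low before and at 1 to 10 RPKM at sphere, among them mixl1 at 6.07 RPKM and GATA5 at 3.50. Only 2 of its rows had been present earlier and stood at 10 RPKM or more at sphere, EOMES and foxh1, both known as maternal regulators. Of 38 ventral and epidermal rows 5 were members (GATA2, GATA3, TFAP2A, klf2b and admp) and 7 had been present earlier and stood at 10 RPKM or more. For chemokine, apelin and guidance signals 3 of 43 rows were members (aplnrb, apela and EFNA1).

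Other signalling lists held fewer members. Wnt ligands, antagonists and targets had 2 of 34 rows (wnt11f2 and FZD8), with the antagonist dkk1b low before and at 7.004 RPKM at sphere. The FGF list had 1 of 32 (fgfr4), with the FGF8 row ENSDARG00000003399 at 4.22 RPKM at sphere and 0.113 at 1000-cell. The other FGF8 row, ENSDARG00000039615, was below 1 RPKM both before and at sphere. The neural and trunk list had 1 of 50 (SOX11), and 33 of its rows were below 1 RPKM both before and at sphere. The Notch list had 0 of 19 and the histone and chromatin list 0 of 24. Adhesion, migration and matrix had 2 of 51 (HAS2 and arl4ab), immediate early, stress and p53 targets 2 of 52 (GADD45B and IER5L), cell cycle genes 1 of 21 (MYCN) and the epithelium list 1 of 31 (grhl3). In the cell cycle list 13 of 21 rows had been present earlier and stood at 10 RPKM or more at sphere, and in the immediate early list 18 of 52. None of the rows in these lists was among the 31 genes left out by name. Genes with a left-out name, such as her, krt, cldn and bmp genes, mxtx2, noto and tbx16, could not be members whatever their level. Low counts in a list are thus no statement about those genes, nor is the 0 of the Notch list one about her genes.

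**Figure D3:**
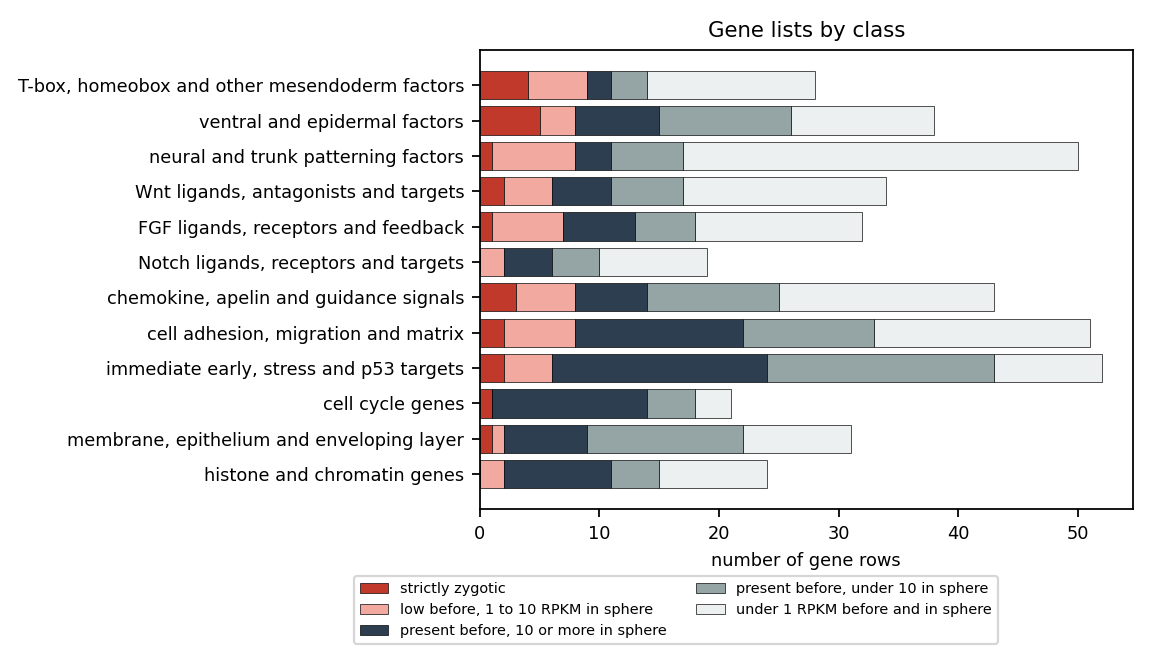
Number of gene rows in each of 12 lists by role (horizontal), split into strictly zygotic genes, genes low before and at 1 to 10 RPKM at sphere, genes present before (those at 10 RPKM or more at sphere, then those under it), and genes under 1 RPKM before and at sphere. The mesendoderm and ventral lists hold 4 and 5 strictly zygotic genes, while the cell cycle list is mainly genes present before.

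Sperm was not used in the choice. The set was not silent there: 62 of 156 genes (39.7%) stood at 1 RPKM or more and 10 at 10 RPKM or more, with a median of 0.504 RPKM and a highest value of 145 RPKM. Other genes below 1 RPKM in the 7 early libraries reached 1 RPKM in sperm in 24.2% of cases, and other genes at 10 RPKM or more at sphere in 96.3%. Between sperm and oocyte, 5463 of 17364 genes measured were called higher in sperm (31.5%) and 1577 lower (9.08%). Of the 62 members measured 28 were called higher in sperm and 0 lower. These 62 passed the filter through sperm alone, since the oocyte level was below 1 RPKM by choice, so their direction was fixed and nothing is read from it.

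At sphere and in sperm the same gene often differed widely, with a Spearman correlation of 0.10 across the 156 genes. Listed levels in sperm were higher than at sphere for 7 members (4.49%), a share not computed over all genes. The clone-named gene si:dkey-16m19.4 stood at 55.4 RPKM at sphere and 145 in sperm, and si:dkey-95p16.2 at 26.8 and 86.8 RPKM. The member MCM6 row stood at 10.7 RPKM at sphere and 116 in sperm, where the row abundant in the egg was at 2.56 RPKM. For rassf7b, of the Ras association domain family, the level was 14.99 RPKM at sphere and 15.01 in sperm. Its sphere over sperm ratio was 0.999 (0.934 to 1.07). That of si:dkey-56m19.5, also among the 7, was 0.923 (0.848 to 1.01), and both intervals included 1. Among the regulators, GATA3 was at 12.2 RPKM in sperm, arl4ab at 11.3, GSC at 8.90 and NET1 at 8.21. The sperm library also held RNA of testis markers: all 8 stood at 1 RPKM or more, between 168 and 472 RPKM, with a sum of 2636 RPKM. Whether sperm or other cells of the testis carried the members' RNA was not tested.

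**Figure D4:**
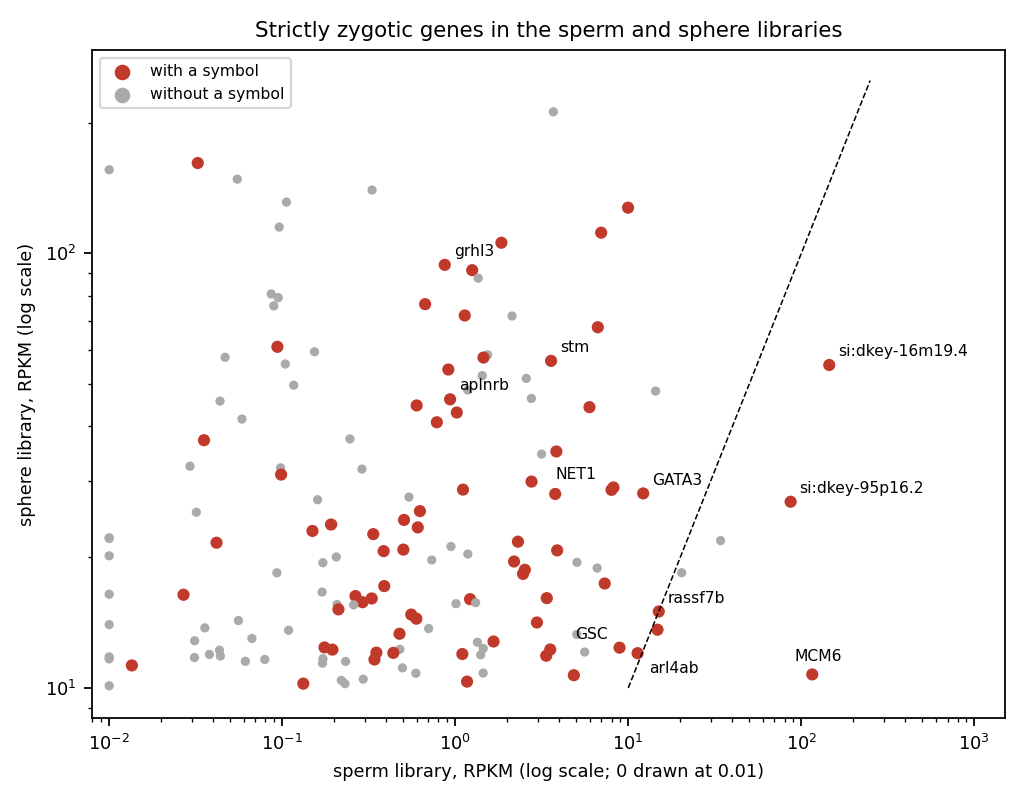
Level of each of the 156 genes in sperm (horizontal, RPKM, log scale, 0 drawn at 0.01) and at sphere (vertical, RPKM, log scale), with genes that have a symbol in red and the dashed line marking equal levels. MCM6, si:dkey-16m19.4 and si:dkey-95p16.2 lie well to the right of the line, and the set spreads over sperm levels from 0 to 145 RPKM.

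Gene length, as implied by the deposited values, was the remaining property. It entered RPKM as a divisor but was not itself a limit. Members had a median length of 1598 bases (quartiles 860 and 2327, n = 155), against 2172 bases for other genes at 10 RPKM or more at sphere (n = 6569). Genes of the low class that stayed under 10 RPKM at sphere had a median of 1539 bases. Members with a symbol had a median of 2052 bases and other sphere genes with a symbol 2261 bases. Members without a symbol had 1080 bases. Members without a symbol made up 52.6% of the set, against 16.18% of other genes at 10 RPKM or more at sphere and 35.8% of all genes. Every gene left out by name had a symbol, so the choice itself raised the share in the set. Before that step, 82 of the 187 genes that met both limits had no symbol. Length and sphere level had a Spearman correlation of 0.004 across 155 members.

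A cluster of very short genes stood apart. Of 155 members 11 (7.10%) were under 130 bases, against 5 of 6569 (0.0761%) other genes at 10 RPKM or more at sphere. Over the whole table, 352 of 26479 genes with a recovered length were this short. Of these 352, 104 reached 1 RPKM at sphere and 81 in sperm, but only 14 to 24 in each library from oocyte to 1000-cell. The higher number at sphere was thus not particular to the members. Summed RPKM over the 352 short genes was not highest at sphere. It was 8371 there, 26075 at 16-cell and 23201 at 64-cell, and from 2179 (sperm) to 7011 (oocyte) in the other libraries. Among these 11 were snord22, snord31.1 and snord31.2, small nucleolar RNAs that guide the modification of ribosomal RNA, and 8 genes with no symbol. They stood at 10.4 to 19.7 RPKM at sphere on 69 to 199 reads, had 0 to 4 reads at 1000-cell, and held 15 reads over all 11 genes and 7 early libraries together. Of the 35 rows with a snord symbol 7 reached 1 RPKM in sperm, 0 at 1000-cell and 16 at sphere. Reads of 50 bases leave few start positions in a gene of this length, and most such RNAs carry no poly(A) tail. The part of library preparation in these values was not tested.

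**Figure D5:**
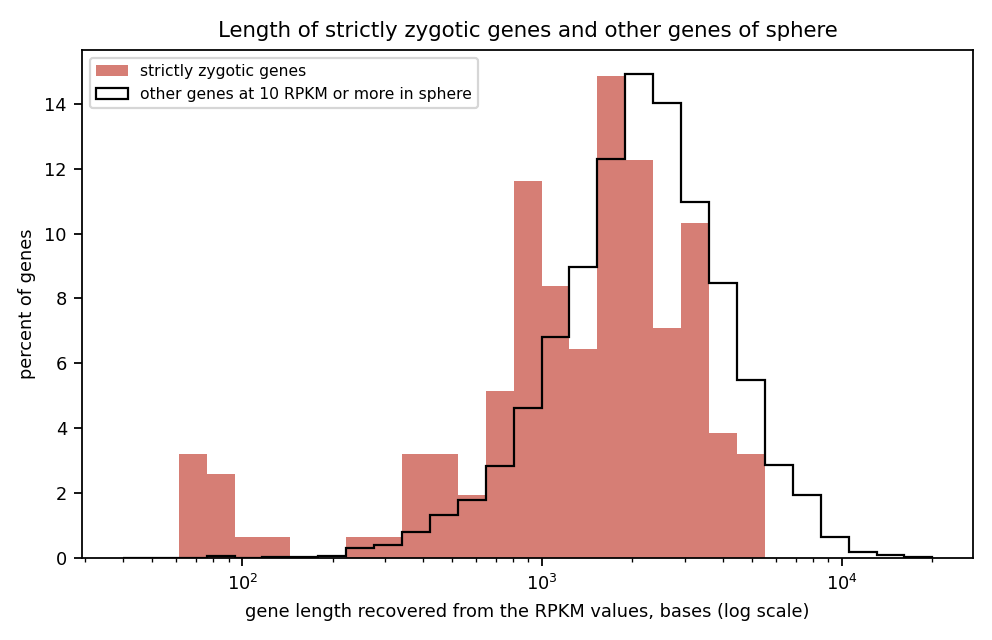
Share of genes by length (horizontal, bases, log scale) among 155 strictly zygotic genes (red bars) and 6569 other genes at 10 RPKM or more at sphere (black line). The strictly zygotic genes hold a separate group near 100 bases and a larger share under 1000 bases (34.2% against 12.5%).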

How the data were processed

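The authors deposited 1 table of RPKM values, a column for each of 10 libraries, made from 50 bp single reads of TruSeq v2 libraries, per the labels' protocols. TopHat2 2.0.9 and build Zv9 are named in the submitters' processing notes. For the counter, the annotation and multiply mapped reads, the sources used here give nothing. The RPKM values deposited by the authors were used as they stand, with no log scale or pseudocount except where a difference of log2(RPKM + 1) is stated.

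Whole reads, gene lengths and the reads each library was scaled to were solved from the ratios of RPKM values within genes. This worked for 26479 genes, 99.94% of those above 0 in at least 2 libraries. Of all values above 0, 99.2% came out whole within 0.02 reads, and 155 members were covered. In a test on simulated data (1467 genes), 99.5% had every read recovered. No count test was run, since each stage has 1 library. Reads in genes were 86.3% to 93.8% of the reads scaled to.

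Folds between libraries are ratios of RPKM with exact 95% Clopper-Pearson intervals on recovered reads. A symbol came from a name table, and 52 of 74 symbols matched RefSeq (GRCz12tu), used for names and gene order only. The name table gives human-style capitals to some fish genes. Symbols shared by several rows (9 members) are given with identifiers. No promoter or protein sequences were used here. Python 3.11.15, pandas 2.3.3, numpy 2.4.6 and scipy 1.17.1 were used.

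The members and lists were chosen with earlier results of these data known. Roles, and the genes with no symbol or a shared one, were picked after their values were seen. Other named members were those highest at sphere, highest or lowest at 1000-cell relative to sphere, highest in sperm or before, nearest a limit, in a list, or neighbours of another member. Alternatives were other limits, pseudocounts, filters and folds, median ratio scaling, genes with a symbol of their own, and, added after seeing the data, leaving out genes under 130 bases.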

Additional observations from a re-analysis of the deposited data

How the results depend on the processing

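Of 60 alternative values, 44 stayed within the limits set for no change and 16 moved. Reversal of direction was not assessed. The number of genes was 298 with a sphere limit of 5 RPKM, 79 with 20 RPKM, and 94 when sperm had to be low too. It was 134 and 184 with early limits of 0.5 and 2 RPKM, and 111 after median ratio scaling. The share of genes at 1 RPKM or more at 1000-cell was 21.7% with the early limit of 2 RPKM, 9.40% with a sphere limit of 5 RPKM and 26.6% with 20 RPKM. The share in sperm was 28.8% after median ratio scaling and 50.8% over genes with a symbol of their own, whose median length was 1896 bases. The share of members called higher at 1000-cell than at 256-cell was 0% for genes with a symbol of their own and also with a pseudocount of 5, 73.9% with 0.1, 3.21% without a filter (all 156 genes counted), 100% with a filter at 5 RPKM (5 genes left) and 60.9% at 2-fold. The share called higher at sphere than at 1000-cell was 62.8% with a pseudocount of 5. A filter changed the number of genes counted, and a pseudocount or fold limit changed what counts as a call. For the other moves the cause was not tested. Median ratio scaling moved the median log2 difference of all genes by -0.60 for sperm over oocyte and -0.10 for 1000-cell over 256-cell. Leaving out the 11 genes under 130 bases moved no value beyond the limits. No paired analysis was possible because each stage has 1 library, which also leaves no replicate to leave out. The promoter window alternative was not run. Depth limits the ratios over the 256-cell library, where 54 members had no read.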
